A study of Mus musculus with 7 samples.

Results

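The genes described here encode proteins of the nucleolus that transcribe ribosomal RNA and build ribosomes. They are a list of 36 gene symbols, drawn up with earlier results of these data known, among them subunits of RNA polymerase I (Pol I), its initiation factors, the core proteins of small nucleolar ribonucleoproteins (snoRNPs) and assembly factors of both ribosomal subunits. All 36 were found among the 24319 rows of the deposited expression table. Of these, 35 passed the filter on low values (at least 1 FPKM, a fragment count scaled by transcript length and library depth, in 2 or more libraries) and were tested with the 12271 genes that passed it. Taf1c did not pass and is given by its values alone. The summed FPKM of the 36 genes was also set against Rn45s, the row of the ribosomal RNA precursor. For the 35 tested genes the order of the libraries inside each group was set against it too.

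The RNA came from cloned mouse embryos. In such somatic cell nuclear transfer a cumulus cell, taken from the cells around an ovulated egg, is injected into an oocyte stripped of its own chromosomes. Embryos of CROC+K+M, with 2 libraries, were built in recipient oocytes that had been vitrified and warmed, and were treated with 10 µM melatonin, an indole hormone. CROC+K, with 3 libraries, used such oocytes without melatonin, and FOC+K, with 2 libraries, used fresh oocytes without melatonin. The protocol names a vehicle for embryos without melatonin. All 3 groups share the strain label B6D2F1, a wild type genotype, injection of mRNA for the histone demethylase Kdm4a, and activation with strontium chloride. No group without Kdm4a mRNA and no fertilized embryo was analysed here. Each library pooled 50 to 100 embryos and is labelled as 2-cell, the stage at which the mouse embryo switches on its own genome. The treatment protocol, which is the same text for all libraries, names blastocysts too.

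Ribosome production starts in the nucleolus, where Pol I transcribes a long precursor that is cut into the 18S, 5.8S and 28S ribosomal RNAs. Box C/D snoRNPs guide 2'-O-methylation of the precursor and box H/ACA snoRNPs guide pseudouridylation, while the small subunit processome and the large subunit assembly factors fold, cut and package it. In mouse embryos the nucleus holds compact nucleolar precursor bodies after fertilization, and ribosomal RNA synthesis resumes around the 2-cell stage. Transcripts of nucleolar proteins in such embryos can therefore be stored by the oocyte or made by the embryo, and bulk levels cannot tell these sources apart. Nor can a bulk library tell fewer cells with a transcript from less transcript per cell.

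Libraries differed in ways that the groups do not explain, and these facts touch each result below. The library CROC+K+M replicate 1 held trophectoderm markers, which its 2-cell label does not account for. A list of 10 such markers summed to 25639 FPKM there, against 24.5 to 42.7 FPKM in the other 6 libraries. Fabp3 alone made up 24404 FPKM of that sum, and the other 9 markers summed to 1236 FPKM there, against 24.2 to 39.7 FPKM elsewhere. The trophectoderm factor gene Cdx2 was at 6.97 FPKM there and is listed at 0 in those 6. Summed 2-cell markers (16 genes) were lowest in CROC+K replicate 1 at 199 FPKM and highest in CROC+K replicate 3 at 1331 FPKM. In CROC+K+M replicate 1 they summed to 520 FPKM, with 14 of 16 at or above 1 FPKM, against 208 FPKM in CROC+K+M replicate 2. Tcstv1 and Tcstv3 are listed at 0 in all 7 libraries. All 11 oocyte markers were at or above 1 FPKM in every library, with sums of 3948 to 6524 FPKM. Of 11 cumulus cell markers 3 to 6 reached 1 FPKM, with sums of 14.8 to 26.7 FPKM and Ptx3 at 0 throughout. Of 8 inner cell mass markers 2 to 4 did, with sums of 30.9 to 62.7 FPKM and Sox17 at 0 throughout. FPKM summed to between 552360 and 1018000 over all rows of a library. Across all tested genes, CROC+K replicate 1 correlated best with a FOC+K library (r = 0.974 on log2(FPKM + 1)). CROC+K replicates 2 and 3 correlated best with each other (r = 0.952), and the r of replicate 1 with either was no higher than that. The labels speak of biological replicates, and p-values measure the spread between these libraries.

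The promoters of the genes were compared with those of other genes, since the letters CACGTG, the E-box bound by Myc family factors, are a known feature of many ribosome biogenesis genes. Promoters were 300-base windows from RefSeq (build GRCm38.p6), 250 bases before to 50 bases after the start, and 33 of the 36 genes had one. CACGTG, which reads the same on both strands, was present in 6 of the 33 genes (18.2%), against 8.09% of 27025 genes with a promoter and 11.5% of the 9344 tested genes with one. The 6 genes were Nop2, Pes1, Rrn3, Utp18, Utp20 and Wdr43. The 41 windows of the 33 genes held a median of 19 CG pairs, the same median as over the windows of all tested genes, against 7 over all windows. Below are the stretches around the motif in 4 of these genes, from their own strand and with the motif in capitals, shown so that its neighbouring letters can be compared.
Nop2 (chr6:125131633-125131932, plus strand): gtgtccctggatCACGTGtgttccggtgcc
Pes1 (chr11:3963725-3964024, plus strand): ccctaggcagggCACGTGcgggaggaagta
Utp18 (chr11:93885717-93886016, minus strand): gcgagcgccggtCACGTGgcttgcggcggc
Wdr43 (chr17:71615965-71616264, plus strand): cgcccgggcgaaCACGTGgctgccgcggag

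The coordinates of those 4 are of the whole window. In Utp18 the motif began 20 bases before the start and in Nop2 60 bases before it. In Pes1, Wdr43 and Utp20 it began 2, 17 and 37 bases after the start. The whole windows of 4 genes named in the comparisons are given next: Utp20 and Rrn3, which hold the motif once and 2 times, and Nop56 and Nop10, which lack it. The motif is in capitals.
Utp20 (chr10:88826765-88827064, minus strand): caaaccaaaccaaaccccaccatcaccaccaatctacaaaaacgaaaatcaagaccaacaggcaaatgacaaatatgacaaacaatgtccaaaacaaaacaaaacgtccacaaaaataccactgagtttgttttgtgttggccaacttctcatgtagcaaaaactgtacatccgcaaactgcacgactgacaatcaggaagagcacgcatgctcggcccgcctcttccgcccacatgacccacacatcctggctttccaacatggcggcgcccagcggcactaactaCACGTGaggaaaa
Rrn3 (chr16:13780449-13780748, plus strand): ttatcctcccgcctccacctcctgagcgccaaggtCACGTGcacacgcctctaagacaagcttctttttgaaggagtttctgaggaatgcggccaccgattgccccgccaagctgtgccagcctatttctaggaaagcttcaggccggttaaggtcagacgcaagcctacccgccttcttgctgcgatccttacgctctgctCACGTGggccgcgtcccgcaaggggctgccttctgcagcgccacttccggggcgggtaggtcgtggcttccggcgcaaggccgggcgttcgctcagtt
Nop56 (chr2:130274162-130274461, plus strand): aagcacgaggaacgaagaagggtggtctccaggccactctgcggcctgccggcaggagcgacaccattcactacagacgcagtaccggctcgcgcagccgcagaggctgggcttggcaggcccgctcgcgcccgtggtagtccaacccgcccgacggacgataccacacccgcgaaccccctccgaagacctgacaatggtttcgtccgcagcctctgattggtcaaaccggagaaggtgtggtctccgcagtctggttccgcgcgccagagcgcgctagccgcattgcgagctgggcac
Nop10 (chr2:112261676-112261975, plus strand): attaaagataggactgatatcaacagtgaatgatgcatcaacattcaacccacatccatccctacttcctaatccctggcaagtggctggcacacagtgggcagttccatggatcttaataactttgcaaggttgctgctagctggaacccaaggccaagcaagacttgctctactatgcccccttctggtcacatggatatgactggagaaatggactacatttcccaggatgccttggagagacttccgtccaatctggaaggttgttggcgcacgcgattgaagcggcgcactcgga

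Of the 35 genes Nop56 had the smallest unadjusted p between CROC+K and FOC+K, and Nop10 between CROC+K+M and FOC+K. Their promoters differ in composition, with 32 CG pairs in the window of Nop56 and 7 in that of Nop10. Over the windows of the 33 genes CG pairs ran from 6 to 40, and a relation of composition to the changes was not tested.

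Over the 36 genes, levels spanned 3 orders of size. Npm1, which encodes nucleophosmin, an abundant nucleolar chaperone, had the highest mean over the 7 libraries, 1161 FPKM, and took 25.7% to 37.3% of the summed FPKM of the 36 genes. Its FPKM was 1011 and 985 in CROC+K+M, 1091, 1229 and 1339.8 in CROC+K, and 1408 and 1064 in FOC+K, and the CROC+K+M libraries lay below all others. Processed copies of Npm1 exist in the genome, so the level is uncertain. Ncl encodes nucleolin, which binds ribosomal RNA and its precursor. It had 54.99 and 40.8 FPKM in CROC+K+M, 83.1, 59.4 and 58.5 FPKM in CROC+K, and 81.2 and 59.0 FPKM in FOC+K. As for Npm1, both CROC+K+M libraries lay below the other 5.

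The box C/D proteins are the methyltransferase fibrillarin (Fbl) and the scaffold proteins Nop56 and Nop58. Nop58, the highest of them by mean, had 81.2 and 94.9 FPKM in CROC+K+M, 134, 138 and 107 FPKM in CROC+K, and 179 and 112 FPKM in FOC+K. Nop56 had 129 and 137 FPKM in CROC+K+M, 95.4, 157 and 123 FPKM in CROC+K, and 84.9 and 59.1 FPKM in FOC+K. So Nop58 was lowest in the CROC+K+M libraries while its partner Nop56 was lowest in the FOC+K libraries, and in both genes the FOC+K pair did not overlap with the CROC+K+M pair. Fbl ranged from 36.3 FPKM in CROC+K replicate 1 to 69.7 FPKM in CROC+K+M replicate 2.

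Among the 4 box H/ACA proteins, Dkc1 is the pseudouridine synthase dyskerin and Nhp2, Nop10 and Gar1 are its partners in the particle. The highest was Nhp2, with 794 and 672 FPKM in CROC+K+M, 448, 1009.5 and 1095 FPKM in CROC+K, and 559.6 and 374 FPKM in FOC+K. Nop10 had 624 and 563 FPKM in CROC+K+M, 229.7, 341 and 379.5 FPKM in CROC+K, and 238 and 258 FPKM in FOC+K. Gar1 had 15.9 and 72.4 FPKM in CROC+K+M, 64.0, 20.3 and 11.3 FPKM in CROC+K, and 38.6 and 52.0 FPKM in FOC+K. The 4 genes did not share one pattern: Nhp2 was lowest in FOC+K replicate 2 and CROC+K replicate 1, and Nop10 was highest in both CROC+K+M libraries. Gar1 was high where Nhp2 was low within each of the 3 groups. Its range of 6.43 times from the lowest to the highest library was the widest of the 36 genes. Dkc1 ranged from 76.1 FPKM in CROC+K replicate 1 to 157 FPKM in CROC+K replicate 2.

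**Figure D1:**
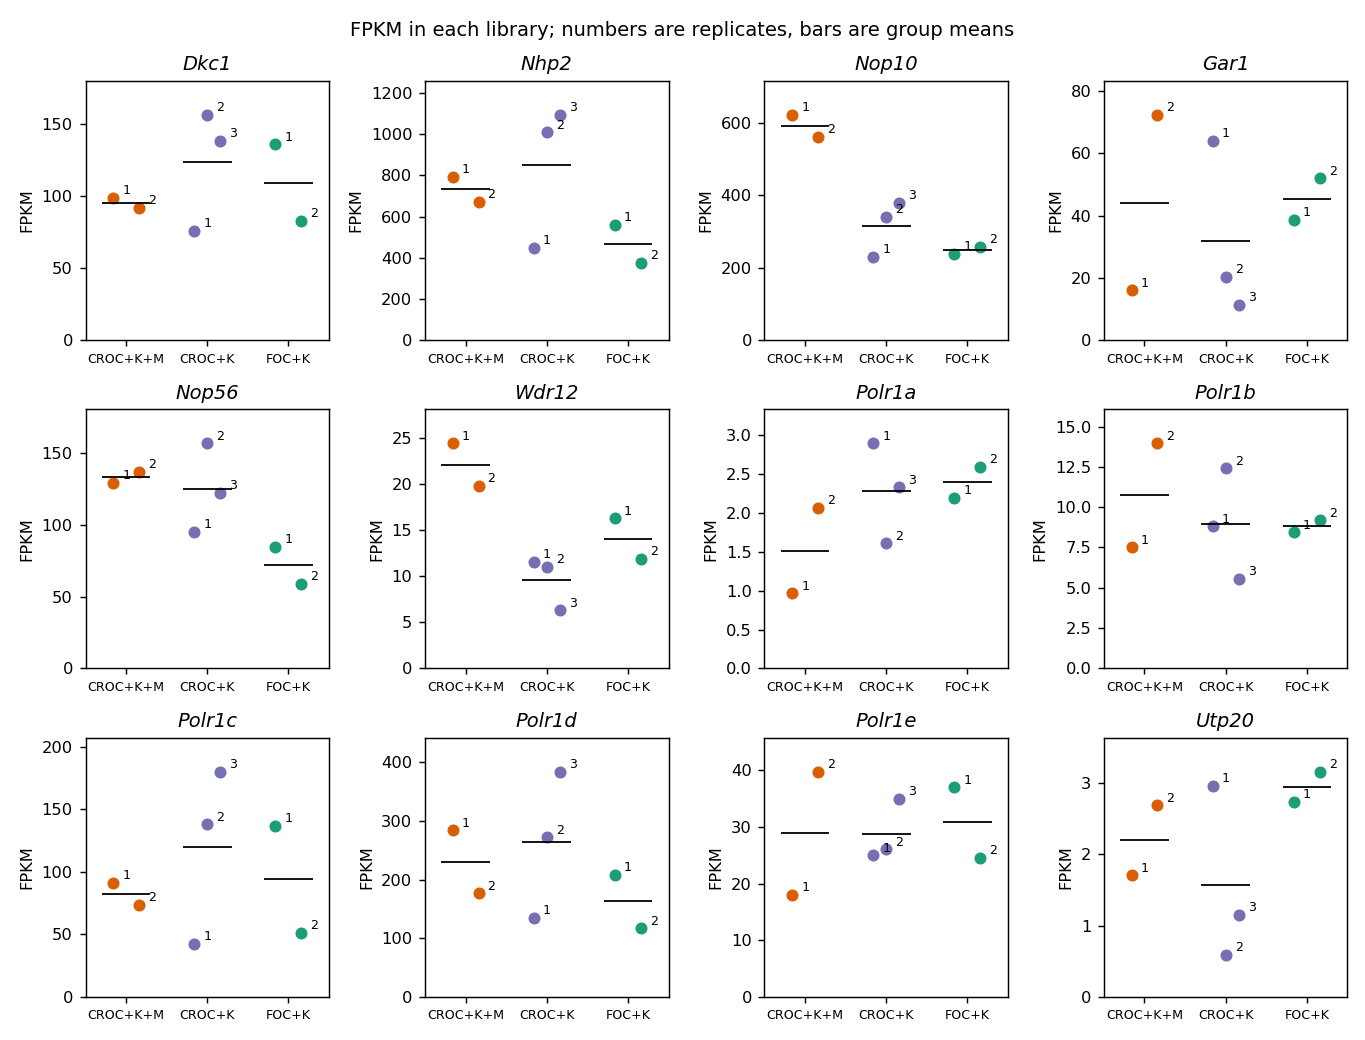
FPKM (vertical axis, from 0) of 12 genes by group, with 1 point for each library labelled by its replicate number and a bar at the group mean. Nop10 sits at 563 and 624 FPKM in CROC+K+M and at or below 379.5 FPKM elsewhere, and Gar1 spreads from 11.3 to 64.0 FPKM within CROC+K.

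The Pol I subunits fell into low and high genes. Polr1a, which encodes the largest subunit of the enzyme, had 0.969 and 2.06 FPKM in CROC+K+M, 2.90, 1.61 and 2.33 FPKM in CROC+K, and 2.196 and 2.60 FPKM in FOC+K. Polr1b, the gene of the second largest subunit, had 7.51 and 14.0 FPKM in CROC+K+M, 8.82, 12.4 and 5.57 FPKM in CROC+K, and 8.45 and 9.19 FPKM in FOC+K. These 2 subunits form the catalytic cleft, and their groups overlapped except for Polr1a in CROC+K+M, which lay below both FOC+K libraries. Polr1c and Polr1d encode subunits shared by Pol I and Pol III. Polr1c had 90.9 and 73.4 FPKM in CROC+K+M, 42.5, 138 and 179.9 FPKM in CROC+K, and 137 and 51.2 FPKM in FOC+K. Polr1d had 284 and 177 FPKM in CROC+K+M, 135, 272 and 384 FPKM in CROC+K, and 208 and 117 FPKM in FOC+K. Both shared subunits were lowest of the CROC+K libraries in replicate 1 and highest in replicate 3, so that the spread inside CROC+K exceeded the difference between any 2 group means. Polr1e, which encodes a subunit of the Pol I specific subcomplex, had 17.98 and 39.8 FPKM in CROC+K+M, 24.99, 26.1 and 35.03 FPKM in CROC+K, and 37.0 and 24.6 FPKM in FOC+K, with all groups overlapping.

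The initiation factor genes were low. Ubtf encodes UBF, which coats active ribosomal RNA genes, and had 14.3 and 10.7 FPKM in CROC+K+M, 5.64, 12.7 and 9.56 FPKM in CROC+K, and 19.9 and 9.89 FPKM in FOC+K. Rrn3, the factor that makes Pol I competent for initiation, had 11.1 and 21.4 FPKM in CROC+K+M, 24.6, 19.0 and 20.8 FPKM in CROC+K, and 21.2 and 18.6 FPKM in FOC+K. In both genes a single library stood at the edge, FOC+K replicate 1 at the top for Ubtf and CROC+K+M replicate 1 at the bottom for Rrn3. Taf1b and Taf1c encode subunits of the SL1 complex that recognizes the promoter. Taf1b had 10.9 and 13.3 FPKM in CROC+K+M, 9.40, 12.7 and 13.3 FPKM in CROC+K, and 11.7 and 13.7 FPKM in FOC+K. Taf1c had 0.931 and 1.41 FPKM in CROC+K+M, 0.340, 0.825 and 0.514 FPKM in CROC+K, and 0.859 and 0.850 FPKM in FOC+K. Taf1c lay above the CROC+K libraries in both CROC+K+M libraries, but its lowest value corresponds to about 3.56 fragments over the coding sequence and can show little.

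Of the large subunit assembly genes, Nop16 had the highest mean. It had 144 and 193 FPKM in CROC+K+M, 116, 256 and 223 FPKM in CROC+K, and 215 and 128 FPKM in FOC+K. Bop1, Pes1 and Wdr12 encode the PeBoW complex, which is needed for 28S maturation. Wdr12 had 24.4 and 19.8 FPKM in CROC+K+M, 11.5, 10.97 and 6.28 FPKM in CROC+K, and 16.2 and 11.9 FPKM in FOC+K. Bop1 had 6.63 and 7.31 FPKM in CROC+K+M, 1.45, 5.79 and 4.42 FPKM in CROC+K, and 4.80 and 2.73 FPKM in FOC+K. Both genes were highest in the 2 CROC+K+M libraries, and the third partner Pes1, at 10.1 and 21.9 FPKM in CROC+K+M, 17.9, 11.4 and 9.01 FPKM in CROC+K, and 15.3 and 12.2 FPKM in FOC+K, was not. The other 5 genes of this class are the RNA methyltransferase gene Nop2, the helicase gene Ddx18, and Nip7, Rrp1 and Nop16. Of these, Rrp1 had the narrowest range (1.73 times) and Nip7 the widest (2.95 times).

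The genes of the small subunit processome and of 18S maturation were led by Wdr43, with 57.4 and 92.3 FPKM in CROC+K+M, 56.9, 78.4 and 86.8 FPKM in CROC+K, and 72.8 and 56.6 FPKM in FOC+K. Rrp9, a protein of the U3 snoRNP, had 51.0 and 47.2 FPKM in CROC+K+M, 39.5, 87.2 and 61.8 FPKM in CROC+K, and 44.5 and 32.8 FPKM in FOC+K. Utp3 had 42.8 and 46.0 FPKM in CROC+K+M, 30.3, 41.8 and 40.3 FPKM in CROC+K, and 34.3 and 24.1 FPKM in FOC+K. In all 3 genes FOC+K replicate 2 was the lowest library. Utp20, a very large processome protein, had 1.71 and 2.69 FPKM in CROC+K+M, 2.96, 0.589 and 1.153 FPKM in CROC+K, and 2.74 and 3.16 FPKM in FOC+K. CROC+K replicate 1 thus resembled the FOC+K libraries for Utp20, while replicates 2 and 3 lay below every other library. Nat10, the acetyltransferase of 18S ribosomal RNA, stood at 10.7 FPKM in CROC+K+M replicate 2 and between 3.997 and 5.08 FPKM in the other 6 libraries. Utp18, Wdr75 and Heatr1, also processome proteins, and the helicase gene Ddx10 ranged over 1.56, 2.45, 3.05 and 3.26 times.

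Ddx21 encodes a helicase that links Pol I transcription to processing. It had 9.56 and 21.1 FPKM in CROC+K+M, 17.0, 10.7 and 5.50 FPKM in CROC+K, and 14.1 and 13.9 FPKM in FOC+K. As with Gar1 and Ddx10, replicate 1 was the highest of the CROC+K libraries and replicate 3 the lowest.

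**Figure D2:**
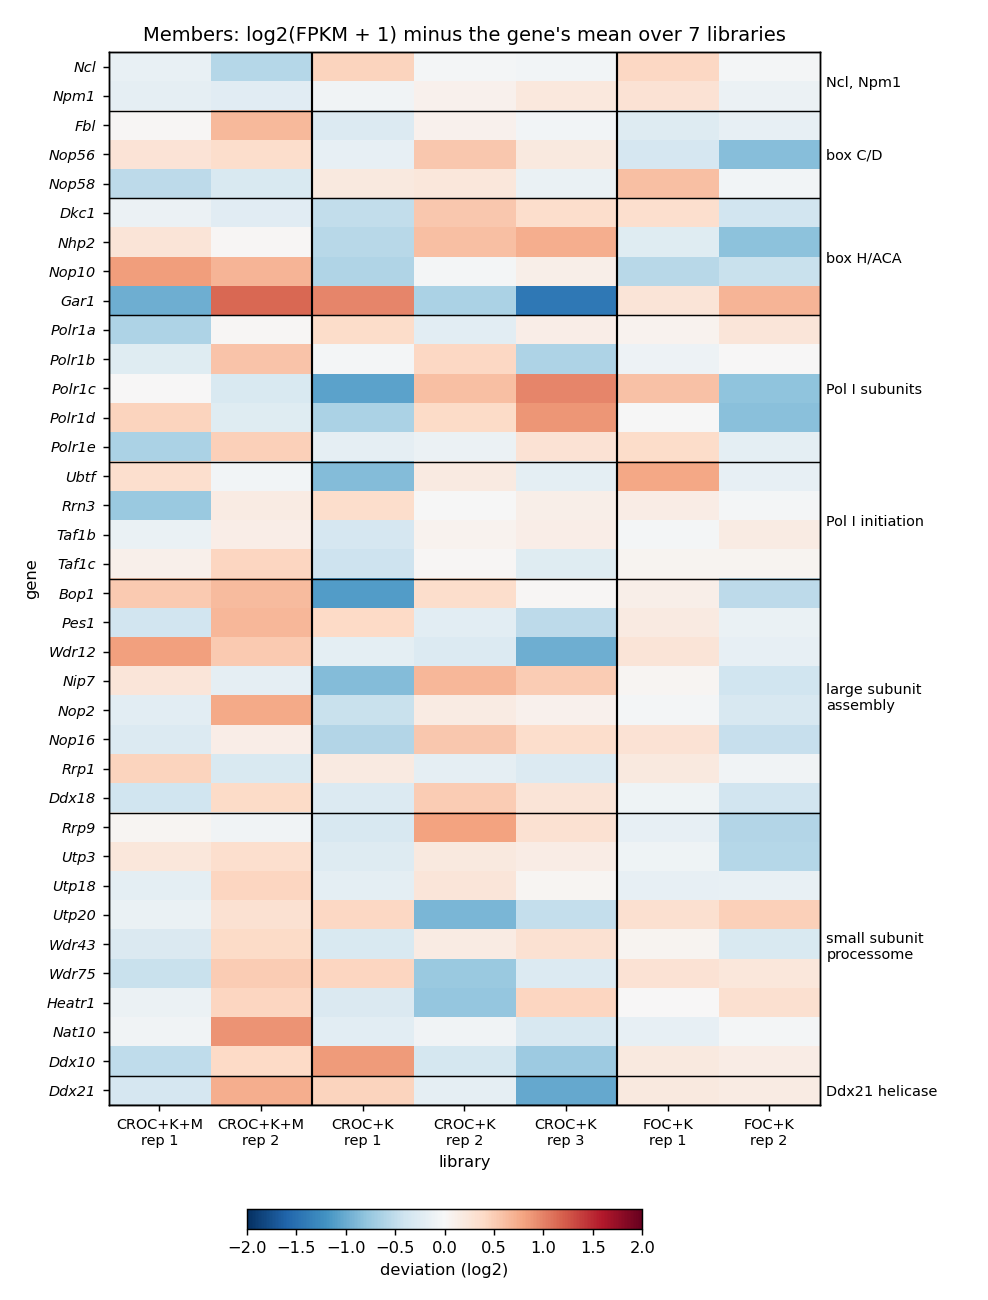
Colour gives each gene's log2(FPKM + 1) minus its own mean over the 7 libraries (red above, blue below), with genes in rows by role and libraries in columns by group. CROC+K replicate 1 is blue for Polr1c, Bop1 and Nip7 and red for Gar1 and Ddx10, opposite to CROC+K replicates 2 and 3 for all but Bop1 in replicate 3, which lies near its mean.

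Libraries of the same group differed in many of the genes. Replicates 1 and 2 of CROC+K differed by 2-fold or more on the log2(FPKM + 1) scale in 13 of the 35 tested genes (37.1%, against 24.6% of all tested genes), and replicates 1 and 3 in 8 (22.9%, against 25.7%). Between replicates 2 and 3 that number was 2 (5.71%, against 14.7%), and between the FOC+K libraries it was 1, Polr1c (2.86%, against 5.00%). The CROC+K+M libraries differed by 2-fold or more in 4 genes (11.4%, against 27.4%): Gar1, Polr1e, Pes1 and Ddx21, all higher in replicate 2. CROC+K replicate 1 was the lowest of its group in 20 of the 35 genes (57.1%, against 36.6% of all tested genes) and the highest in 11 (31.4%, against 39.2%). CROC+K+M replicate 2 lay above replicate 1 in 23 (65.7%, against 48.6%).

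These within-group differences went with gene size among the 35 genes. Spearman's rho between coding length and the log2 difference of CROC+K replicates 2 and 3 from replicate 1 was -0.47 across the 35 genes and 0.00076 across the 11493 tested genes with a coding length. For FOC+K replicate 1 minus replicate 2 it was -0.42 and 0.01, and for CROC+K+M replicate 1 minus replicate 2 it was -0.47 and -0.22. Within CROC+K, for example, replicate 1 was the lowest library for Nhp2 (459 coding bases), Polr1d (399) and Nip7 (540) and the highest for Utp20 (8367). For the changes themselves rho was -0.51 in CROC+K against FOC+K, 0.17 in CROC+K+M against CROC+K and -0.32 in CROC+K+M against FOC+K, beside -0.14, -0.14 and -0.25 across all. The part of transcript size in these changes was not tested beyond the removal of a length trend given below. Levels followed size too, with a rho of -0.76 between coding length and mean log2(FPKM + 1) across the 35 genes and -0.24 across all. FPKM is per length, and these values are across genes that share the same 7 libraries, so they carry no p.

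Rn45s varied more than any of the 36 genes, whose widest range was 6.43 times (Gar1). It was at 224 and 175 FPKM in CROC+K+M, 2114, 266 and 237 FPKM in CROC+K, and 1183 and 1047 FPKM in FOC+K, a range of 12.1 times. The summed FPKM of the 36 genes was 3876 and 3841 in CROC+K+M, 3029, 4462 and 4665 in CROC+K, and 3888 and 2855 in FOC+K. The library with the most Rn45s, CROC+K replicate 1, thus had the second lowest sum of the 36 genes. Its FPKM over all rows also had the second lowest sum, 575460. As a share of the FPKM over all rows, the 36 genes took 0.381% and 0.529% in CROC+K+M. The share was 0.526%, 0.559% and 0.572% in CROC+K, and 0.664% and 0.517% in FOC+K. The Rn45s row includes the mature ribosomal RNA sequences, so precursor and mature RNA cannot be told apart. It made up 0.022% to 0.367% of the FPKM sum of a library. Whether this row follows the amount of ribosomal RNA in the embryos was not tested.

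The ratio of that sum to Rn45s was 17.3 and 21.9 in CROC+K+M, 1.43, 16.8 and 19.7 in CROC+K, and 3.28 and 2.73 in FOC+K. CROC+K replicate 1 lay below the FOC+K libraries, and CROC+K replicates 2 and 3 lay beside those of CROC+K+M. On the log2 scale the mean ratio was 4.28 ± 0.24 in CROC+K+M, 2.96 ± 2.12 in CROC+K and 1.58 ± 0.19 in FOC+K (mean ± SD of 2, 3 and 2 libraries). The difference was 1.38 for CROC+K against FOC+K (exact two-sided permutation test, p = 0.6) and 1.32 for CROC+K+M against CROC+K (p = 0.4, exact permutation test). Between CROC+K+M and FOC+K it was 2.70 (p = 0.333, exact permutation test). The smallest p these designs allow is 0.2 with 3 libraries against 2 and 0.333 with 2 against 2, so none could pass 0.05. Leaving out CROC+K replicate 1 gave 2.60 between CROC+K and FOC+K and 0.10 between CROC+K+M and CROC+K. For Rn45s itself the log2 difference was -1.12 between CROC+K and FOC+K, -1.36 between CROC+K+M and CROC+K, and -2.48 between CROC+K+M and FOC+K (exact permutation test, p = 0.6, 0.2 and 0.333). Without CROC+K replicate 1 the first 2 were -2.14 and -0.34.

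**Figure D3:**
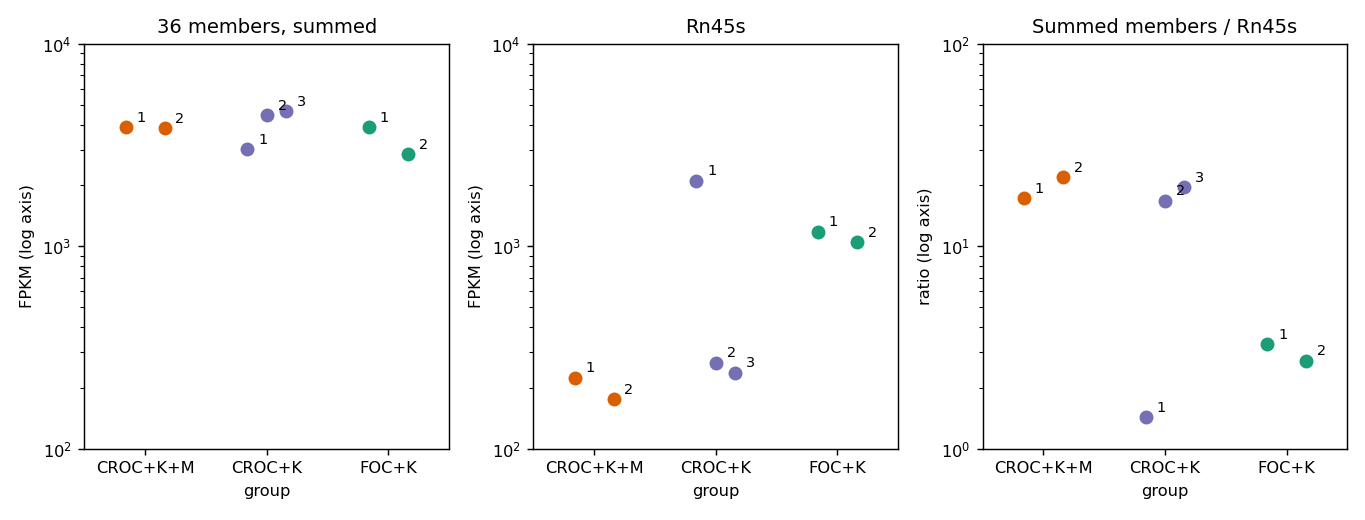
Summed FPKM of the 36 genes (left), FPKM of Rn45s (middle) and their ratio (right) in each library, on log axes, with points labelled by replicate number. The sums lie between 2855 and 4665 FPKM while Rn45s runs from 175 to 2114 FPKM, and CROC+K replicate 1 stands apart from replicates 2 and 3 in Rn45s and in the ratio.

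Since the Rn45s values form separate clusters, no correlation with it is given, and the order of the libraries inside each group was used instead. The genes Ncl, Wdr12 and Rrp1 had the order of Rn45s in all 3 groups, 3 of 35 (8.57%), against 3.10% of all tested genes, and Taf1b the reverse order (2.86%, against 3.19%). Injected and native mRNA cannot be told apart in the Kdm4a row. It was at 2797 and 689 FPKM in CROC+K+M, 497, 4051 and 4949 FPKM in CROC+K, and 2014 and 816 FPKM in FOC+K. Its order was shared in all 3 groups by Npm1, Nhp2, Polr1c and Polr1d (11.4%, against 7.20% of all tested genes), and Gar1 had the reverse order (2.86%, against 6.37%). The summed 2-cell markers had the same order as Kdm4a in all 3 groups, with 545 and 238 FPKM in FOC+K. They were at 199, 924 and 1331 FPKM in CROC+K and at 520 and 208 FPKM in CROC+K+M. The parts of the injected mRNA dose and of 2-cell gene activity in these levels were not tested.

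CROC+K against FOC+K sets vitrified beside fresh recipient oocytes, both without melatonin. None of the 35 genes passed, in a comparison in which 0.00% of all tested genes were called at an adjusted p under 0.05 in limma, a linear model with moderated spread. Of the 35, 16 had a higher mean on the log2 scale and 19 a lower one (45.7% higher, against 47.3% of all tested genes). Their median log2 change was -0.04, against -0.03 over all tested genes. With libraries scaled to equal FPKM sums, in which the median of all tested genes shifts to -0.30, 6 had a higher and 29 a lower mean. Nop56 alone was higher at an unadjusted p under 0.05, and none was lower, where 1.13% of all tested genes were higher and 1.06% lower at that level. The groups did not overlap for Nop56 (higher) and Wdr12 (lower), 1 gene in each direction, against 9.66% and 9.47% of all tested genes.

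Nop56 averaged 125 ± 30.9 FPKM over the 3 CROC+K libraries and 72.0 ± 18.2 FPKM over the 2 FOC+K libraries (mean ± SD), a log2 change of 0.78 ± 0.31 (SE), with an adjusted p of 0.9996 in limma, as for all 35. Nhp2, at 0.79 ± 0.43, and Rrp9, at 0.63 ± 0.37, followed by unadjusted p. The smallest p among lower means belonged to Utp20 (-0.73 ± 0.46), Wdr12 (-0.53 ± 0.35) and Ubtf (-0.61 ± 0.43). With 1 library left out these values moved widely: Ubtf was -0.14 without FOC+K replicate 1, Wdr12 -0.28 without CROC+K replicate 3 and Utp20 -0.43 without CROC+K replicate 2. Nhp2 was 0.50 without FOC+K replicate 2, and Rrp9 was 0.36 without CROC+K replicate 2. Nop56 was 1.04 without FOC+K replicate 1, 0.52 without FOC+K replicate 2, and 0.45 with equal FPKM sums. All 3 Pol I specific subunits had changes close to 0 (Polr1a -0.07, Polr1b -0.04 and Polr1e -0.09), with standard errors of 0.37 to 0.41. By class, 3 of 4 box H/ACA genes, 2 of 3 box C/D genes and 2 of 5 Pol I subunit genes had a higher mean. So did 4 of 8 large subunit genes and 4 of 9 small subunit genes, and with equal FPKM sums these counts were 1 of 4, 1 of 3, 1 of 5, 1 of 8 and 2 of 9. For large subunit genes the count was 6 of 8 without FOC+K replicate 1 and 2 of 8 without FOC+K replicate 2. For box H/ACA genes it was 2 of 4 without CROC+K replicate 2.

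The comparison depended on single libraries. Without FOC+K replicate 1 the split was 22 higher and 13 lower. No overlap was then seen in 10 and 4 genes, against 18.7% and 18.6% of all tested genes. Without FOC+K replicate 2 the split was 14 and 21, with no overlap in 1 and 6, against 17.6% and 18.8%. Without CROC+K replicate 1 it was 20 and 15, with no overlap in 15 and 8, 23 of 35, against 24.9% and 27.4% of all tested genes. Of the 35, 7 then had an unadjusted p under 0.05, beside 1479 of the 12271 tested genes (269 with all libraries). None of the 35 passed (smallest adjusted p among them 0.326 in limma). Nhp2 then had a change of 1.198 and Utp20 one of -1.09.

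CROC+K+M against CROC+K sets embryos with melatonin beside those without it, all from vitrified oocytes. Again none of the 35 genes passed, beside 0.00% of all tested genes called. Of the 35, 20 had a higher mean and 15 a lower one (57.1% higher, against 54.1% of all tested genes), with a median log2 change of 0.10 against 0.06 over all. With equal FPKM sums, in which the median of all tested genes shifts to -0.15, 13 had a higher and 22 a lower mean, and after quantile normalization 16 and 19. Wdr12 and Nop10 were higher at an unadjusted p under 0.05, 2 of 35, where 6.69% of all tested genes were. None was lower at that level, where 3.75% of all were. No overlap between the groups was seen in 4 genes upward (Wdr12, Nop10, Bop1 and Utp3) and 3 downward (Nop58, Ncl and Npm1), against 12.3% and 11.2% of all tested genes. Single libraries decided these counts. Without CROC+K+M replicate 1 the split was 24 higher and 11 lower, with no overlap in 16 and 4 genes (25.9% and 23.2% of all tested genes). Without CROC+K+M replicate 2 it was 14 and 21, with no overlap in 6 and 7 (32.1% and 25.6%), and without CROC+K replicate 1 it was 17 and 18, with no overlap in 5 and 9 (23.1% and 21.9%). Without CROC+K replicate 2 the genes with no overlap numbered 8 and 4 (16.4% and 15.5%).

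Wdr12 averaged 22.1 ± 3.26 FPKM in CROC+K+M (SD, n = 2) and 9.60 ± 2.88 FPKM in CROC+K (SD, n = 3), a log2 change of 1.16 ± 0.35 (SE) with an adjusted p of 0.408 in limma. Without CROC+K+M replicate 1, the library with trophectoderm markers, it was 1.01. The part of those markers in the other values was not tested. Nop10 averaged 593 ± 42.8 FPKM in CROC+K+M and 317 ± 77.8 FPKM in CROC+K, a change of 0.93 ± 0.29 with the same adjusted p, and 0.86 without that library. With a trend on coding length removed Nop10 had a change of 0.17, and its coding sequence of 192 bases is the shortest of the 36. Bop1 had a change of 0.83 ± 0.49, which was 0.39 without CROC+K replicate 1. The genes with the smallest p among lower means were Nop58 (-0.51 ± 0.30), Ncl (-0.47 ± 0.30) and Rrn3 (-0.44 ± 0.34). For Ncl the change was -0.31 without CROC+K replicate 1 and -0.26 without CROC+K+M replicate 2. The value for Rrn3 rests on CROC+K+M replicate 1, as it was 0.0033 without that library. By class, 7 of 9 small subunit genes had a higher mean, which became 5 of 9 after quantile normalization, 3 of 9 with equal FPKM sums and 4 of 9 without CROC+K+M replicate 2. Likewise 5 of 8 large subunit genes did (5 and 4 of 8 under those scalings), and 1 of 5 Pol I subunit genes under all 3 scalings, which became 3 of 5 without CROC+K replicate 3.

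CROC+K+M against FOC+K sets embryos from vitrified oocytes with melatonin beside those from fresh oocytes. It shares libraries with both comparisons above and is not independent of them. None of the 35 genes passed, beside 0.00% of all tested genes called. A higher mean was found in 20 and a lower one in 15 (57.1%, against 52.9% of all tested genes), and the median log2 change was 0.02, against 0.04. Nop10 and Nop56 were higher at an unadjusted p under 0.05 and none was lower, where 4.46% of all tested genes were higher and 2.00% lower. Groups did not overlap in 8 genes upward (Nop10, Nop56, Utp3, Fbl, Wdr12, Bop1, Nhp2 and Rrp9) and 5 downward (Nop58, Ncl, Polr1a, Npm1 and Utp20), against 21.3% and 19.8% of all tested genes. Without CROC+K+M replicate 1 the split was 25 higher and 10 lower, with no overlap in 22 and 6 genes (40.0% and 37.4% of all tested genes). Without CROC+K+M replicate 2 it was 14 and 21, with no overlap in 11 and 17 (42.9% and 40.2%), so the direction over the list turned with the library left out. Without FOC+K replicate 1 no overlap was seen in 16 and 6 genes (30.53% and 28.77% of all tested genes). Without FOC+K replicate 2 the genes with no overlap numbered 9 and 9 (32.03% and 29.39%).

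Nop10 averaged 593 ± 42.8 FPKM in CROC+K+M (SD, n = 2) and 248 ± 13.7 FPKM in FOC+K (SD, n = 2), a log2 change of 1.25 ± 0.32 (SE) with an adjusted p of 0.736 in limma. With the coding length trend removed it was 0.30. Nop56 had a change of 0.90 ± 0.34 (adjusted p = 0.755 in limma) and Utp3 one of 0.61 ± 0.32. With equal FPKM sums Nop56 was at 0.31 and Utp3 at 0.02, and Utp3 was at 0.36 without FOC+K replicate 2. For Nop56 the CROC+K against FOC+K change was 0.78 and the CROC+K+M against CROC+K change 0.12. Wdr12 had changes of -0.53 and 1.16 in those comparisons and 0.62 here. Lower means with the smallest p were those of Nop58 (-0.69 ± 0.32), Ncl (-0.54 ± 0.33) and Polr1a (-0.47 ± 0.41), the last of which was -0.15 without CROC+K+M replicate 1. Without FOC+K replicate 1 Nop58 was at -0.35 and Ncl at -0.31. All 8 large subunit genes had a higher mean, with changes of 0.0084 to 0.78, but 3 of them did after quantile normalization, 4 without CROC+K+M replicate 2 and 4 without FOC+K replicate 2. All 3 tested initiation factor genes had a lower one, with changes of -0.34 to -0.07, but without CROC+K+M replicate 1 Rrn3 was at 0.10 and Taf1b at 0.06, and Ubtf alone was lower, at -0.37. Ubtf was at 0.30 without FOC+K replicate 1. Scaled to equal FPKM sums, in which the median of all tested genes shifts to -0.44, 7 of the 35 genes had a higher and 28 a lower mean, and 2 of the 8 large subunit genes had a higher one. After quantile normalization 11 of the 35 had a higher and 24 a lower mean.

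**Figure D4:**
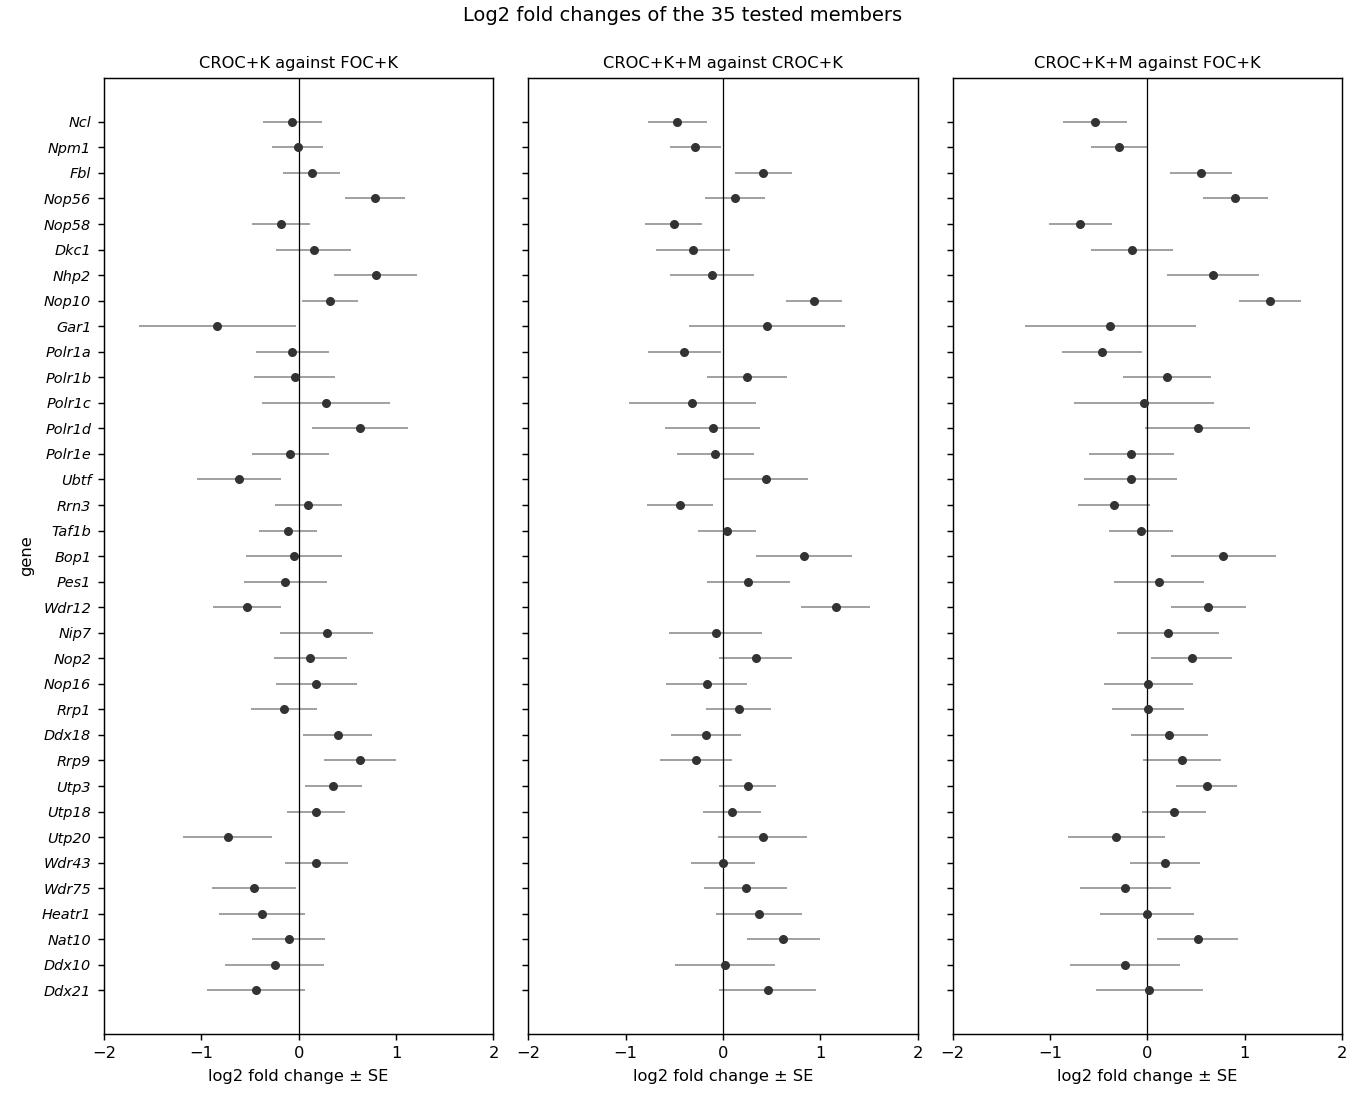
Log2 fold changes (horizontal axis, points) with limma's standard errors (bars) of the 35 tested genes in 3 comparisons, on log2(FPKM + 1). None passed the threshold, and Nop10 and Wdr12 in CROC+K+M against CROC+K lie at 0.93 and 1.16.

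Other ribosome biogenesis genes were taken from a wider list. Of 119 listed genes 118 were in the table and 114 were tested: 13 further Pol I subunits and factors, 48 small subunit and 53 large subunit factors. None passed in any comparison. For CROC+K against FOC+K 50 had a higher and 64 a lower mean (median -0.04), where 47.3% of all tested genes had a higher one. At an unadjusted p under 0.05, 2 genes were higher and none lower, beside 1.13% and 1.06% of all tested genes. The 2 higher genes were the processome genes Imp4, at 78.1, 100.8 and 99.4 FPKM in CROC+K and 61.1 and 47.0 FPKM in FOC+K (0.77 ± 0.27), and Nop14 (0.81 ± 0.30). The lower means with the smallest p were those of Nifk (-0.58 ± 0.25) and Rpf2 (-0.72 ± 0.35), both large subunit factors.

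With melatonin, 74 of the 114 had a higher mean and 40 a lower one in CROC+K+M against CROC+K (median 0.16, against 0.06 over all tested genes), with 10 higher and 3 lower at an unadjusted p under 0.05. Over all tested genes 54.1% had a higher mean, and 6.69% were higher and 3.75% lower at that p. The splits of the 114 genes, here and in the other comparisons, were not recomputed under other scalings or with 1 library left out. For the 35 genes the split here was 20 higher and 15 lower. It became 13 and 22 with equal FPKM sums, and 14 and 21 without CROC+K+M replicate 2. Rpf1, a large subunit factor, had 90.8 and 86.9 FPKM in CROC+K+M and 49.8, 46.4 and 49.7 FPKM in CROC+K (0.86 ± 0.26, adjusted p = 0.408 in limma). Gltscr2, also called Nop53, had a change of 1.07 ± 0.33. Nolc1, a chaperone of snoRNPs, had 38.9 and 64.7 FPKM in CROC+K+M and 91.7, 88.4 and 85.8 FPKM in CROC+K (-0.81 ± 0.32), and Imp4 a change of -0.65 ± 0.27. For CROC+K+M against FOC+K 70 had a higher and 44 a lower mean (median 0.09), with 6 higher and none lower at an unadjusted p under 0.05, beside 52.9% with a higher mean and 4.46% and 2.00% at that p over all tested genes. Polr2k, a subunit common to all 3 nuclear RNA polymerases, had 289 and 366 FPKM in CROC+K+M and 155 and 121 FPKM in FOC+K (1.25 ± 0.35), and Ngdn a change of 0.82 ± 0.27. Utp15 (-0.86 ± 0.45) and Ddx52 (-0.70 ± 0.39) had the smallest p among lower means.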

How the data were processed

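The authors deposited 1 FPKM value per gene and library. STAR 2.5.2b, Cufflinks 2.2.1, Cuffnorm, R 3.3.2 and build mm9 appear in the submitters' processing notes. Annotation and scaling between libraries: not given in the sources used here. Per the labels' protocols, RNA had an integrity number above 7.0 and libraries combined the SMARTer Ultra Low Input and ScriptSeq v2 kits. If the smallest step between low values is 1 fragment, libraries held 3611000 to 5588300 fragments. No interval for counting error is given, since counts were not used.

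Sample titles gave the groups. The members and all gene lists were chosen with earlier results of these data known. FPKM were used as deposited, as log2(FPKM + 1). Small RNA and ribosomal RNA rows (1279) were left out of the test. A limma 3.58.1 fit in R 4.3.3 (group term, 4 residual degrees of freedom) covered all 7 libraries, with two-sided p-values adjusted by the Benjamini-Hochberg method over the 12271 tested genes and a threshold of 0.05. It was tested on simulated data. Coding lengths are the longest per gene in GENCODE, and Python 3.11.15 with scipy 1.17.1 served for the rest. Library values are given for the 3 genes with the smallest unadjusted p per direction and comparison, the highest gene of each class and all Pol I genes. Gar1, Pes1 and Nat10 were added after their values were seen. For other pathway genes the 2 with the smallest p per direction are named. Alternatives were the pseudocount, the filter, scaling, weights, a replicate block, leaving out each library and, chosen after seeing the data, removing a coding length trend.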

Additional observations from a re-analysis of the deposited data

How the results depend on the processing

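None of the 35 genes was called in limma under any alternative tried. Over all tested genes none was called in CROC+K against FOC+K. With 1 library left out, 0 to 658 were called in CROC+K+M against CROC+K, and 0 to 546 in CROC+K+M against FOC+K. The upper ends came without CROC+K+M replicate 2, where the library with trophectoderm markers stands alone for its group and is assumed to vary like the other groups. With equal FPKM sums the median log2 change of the 35 genes was -0.34 between CROC+K and FOC+K, -0.16 between CROC+K+M and CROC+K, and -0.48 between CROC+K+M and FOC+K, while the medians of all tested genes were -0.30, -0.15 and -0.44. On the FPKM as deposited, where the medians were -0.04, 0.10 and 0.02, leaving out 1 library gave -0.19 to 0.17, -0.16 to 0.30 and -0.16 to 0.30. Of the named genes, Rrn3 changed sign in CROC+K+M against CROC+K, with a range of -0.89 to 0.0033 when 1 library was left out, and the other 251 recomputed values kept their sign and stayed short of the threshold. The low-value filter, the pseudocount and array weights changed no call, though with array weights 1743 genes had an unadjusted p under 0.05 in CROC+K against FOC+K, and with equal FPKM sums 1388 did in CROC+K+M against FOC+K. Within the 3 libraries with high Rn45s the median was -0.07 in CROC+K against FOC+K, and within the 4 with low Rn45s it was -0.02 in CROC+K+M against CROC+K. CROC+K+M and FOC+K share no such cluster. With a replicate block, which gives CROC+K replicate 3 no weight, 0 of the 35 genes were called and the medians were 0.04, 0.10 and 0.02, against -0.04, 0.10 and 0.02 without it. Genes at an unadjusted p under 0.05 numbered 96, 707 and 543 with the block and 269, 1281 and 793 without it. Same-numbered libraries did not deviate together (correlations from -0.46 to 0.03), so the numbers are not taken as pairs. At their lowest library Taf1c, Bop1, Utp20 and Polr1a correspond to about 3.56, 13.3, 20.3 and 22.6 fragments over the coding sequence. These counts hold only if the smallest step between low values is 1 fragment.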
